A study of Homo sapiens with 2 samples.

Results

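The mitochondrial carrier family SLC25 was described in Huh7 cells, an established human hepatocellular carcinoma line, with and without knockdown of PPIL1, a prolyl isomerase of the spliceosome. Members were the rows of the deposited count table whose symbol starts with SLC25A and a digit, leaving out SLC25A20. This gave 48 of 19927 gene rows. They stand for 47 gene symbols, because SLC25A6 has a second row, written SLC25A6_1. RNA came from 1 culture with a control hairpin (shControl, genotype label WT) and 1 culture with a hairpin against PPIL1 (shPPIL1, genotype label PPIL1 knockdown), both of Huh7 cells kept in DMEM with fetal bovine serum and antibiotics. The sources used here do not state the hairpin sequences, the vector, the time after knockdown, or whether the cells were a clone or a pool. With 1 library per group there is no replicate check and no test between the conditions. Differences below describe these 2 libraries.

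Carriers of this family exchange metabolites across the inner membrane of the mitochondrion, which is otherwise closed to most charged molecules. A typical member is built from 3 repeats of a pair of membrane helices, is made in the cytosol and is inserted by the TIM22 complex, while a few members reside in other membranes. In hepatocytes they feed oxidative phosphorylation with ADP and phosphate, pass reducing equivalents to the matrix, export citrate for lipid synthesis and carry ornithine for the urea cycle.

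Counted reads totalled 41015345 for shControl and 41165401 for shPPIL1. Ratios are the knockdown over the control library after scaling of the library sizes, with an exact 95% Clopper-Pearson interval on the reads of the gene. A gene is called higher or lower where this interval excludes 1. The interval covers counting error only, because 1 library per group gives no estimate of variation between cultures. PCR copies are not independent molecules, so the interval can understate even the counting error. A gene with 100 reads in each library had an interval out to 1.33-fold, and one with 1000 out to 1.09-fold. PPIL1 itself had 1505 shControl and 104 shPPIL1 reads, the direction of the labels. The 8 hepatocyte markers all passed the filter of 1 CPM (reads scaled to library size) in at least 1 library. Of these, 6 were higher and 0 lower, beside 24.6% and 26.4% of all genes that passed the filter. Their ratios ran only from 0.997 to 1.18, and at high depth even small ratios are called. Their summed FPKM (scaled to library size and gene length) was 10814 under shControl and 11226 under shPPIL1. Of the 5 fibroblast, 4 leukocyte and 3 endothelial markers, 3, 2 and 1 passed the filter. The whole lists summed to 15.7 and 16.0 FPKM, 225 and 182 FPKM, and 1.58 and 1.34 FPKM, with COL3A1 higher and LYZ and PECAM1 lower. PTPRC, CD3E, VWF and COL1A2 had at most 10 reads in a library. In contrast, LUM had 1512 shControl and 1508 shPPIL1 reads, COL1A1 415 and 470, and PECAM1 410 and 352. The lysozyme gene LYZ stood at 223 and 181 FPKM. The part of other cell types in the ratios was not tested.

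The ADP/ATP carriers are close relatives, and their likeness in sequence bears on whether reads can be assigned to a single gene. The stretches below, read from the GENCODE transcripts on GRCh38, are shown because they cover the short signature that marks ADP/ATP carriers. The 18 bases that encode it are in capitals, 5′ to 3′ on the coding strand. All lie in exon 3 of 4, except that of SLC25A31, which crosses from exon 5 to exon 6 of 6. They lie at chrX:119470471-119470500 (plus strand, SLC25A5), chr4:185145857-185145886 (plus, SLC25A4), chrX:1387292-1387321 (minus, SLC25A6) and chr4:127768851-127773388 (plus, SLC25A31, intron included).
SLC25A5: actgttCGCCGCCGCATGATGATGcagtca
SLC25A4: actgttCGTCGTAGAATGATGATGcagtcc
SLC25A6: acggtgCGGCGGCGCATGATGATGcagtcc
SLC25A31: acagttAGAAGACGTATGATGATGcagagt
Over the 894 aligned coding bases, SLC25A5 was 77.2% identical to SLC25A4 and 78.7% identical to SLC25A6, and the longest identical run was 14 and 29 bases. Exact matches of 100 bases between the transcripts of SLC25A4 or SLC25A5 and any gene elsewhere were found in 0% of windows. For SLC25A6 the share was 100%, because its locus at chrX:1386152-1392724 lies in the pseudoautosomal region and has an identical copy on the Y chromosome.

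Of the 48 rows, 40 reached 1 CPM in at least 1 library and were kept. SLC25A31, a testis ADP/ATP carrier, SLC25A47, SLC25A52 and the first row of SLC25A6 had 0 reads in both libraries, below the floor of 3 reads (0.0737 CPM in the control and 0.0724 CPM in the knockdown library). SLC25A12, SLC25A34, SLC25A2 and SLC25A41 had reads but stayed under the filter. By deposited FPKM, a level per kilobase of gene, 3 members exceeded 100 on the mean of both libraries, 6 lay between 20 and 100, 19 between 5 and 20, and 12 kept members at 5 or less. The kept members had a median level of 8.61 FPKM, against 9.39 FPKM for all 12540 genes kept.

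**Figure D1:**
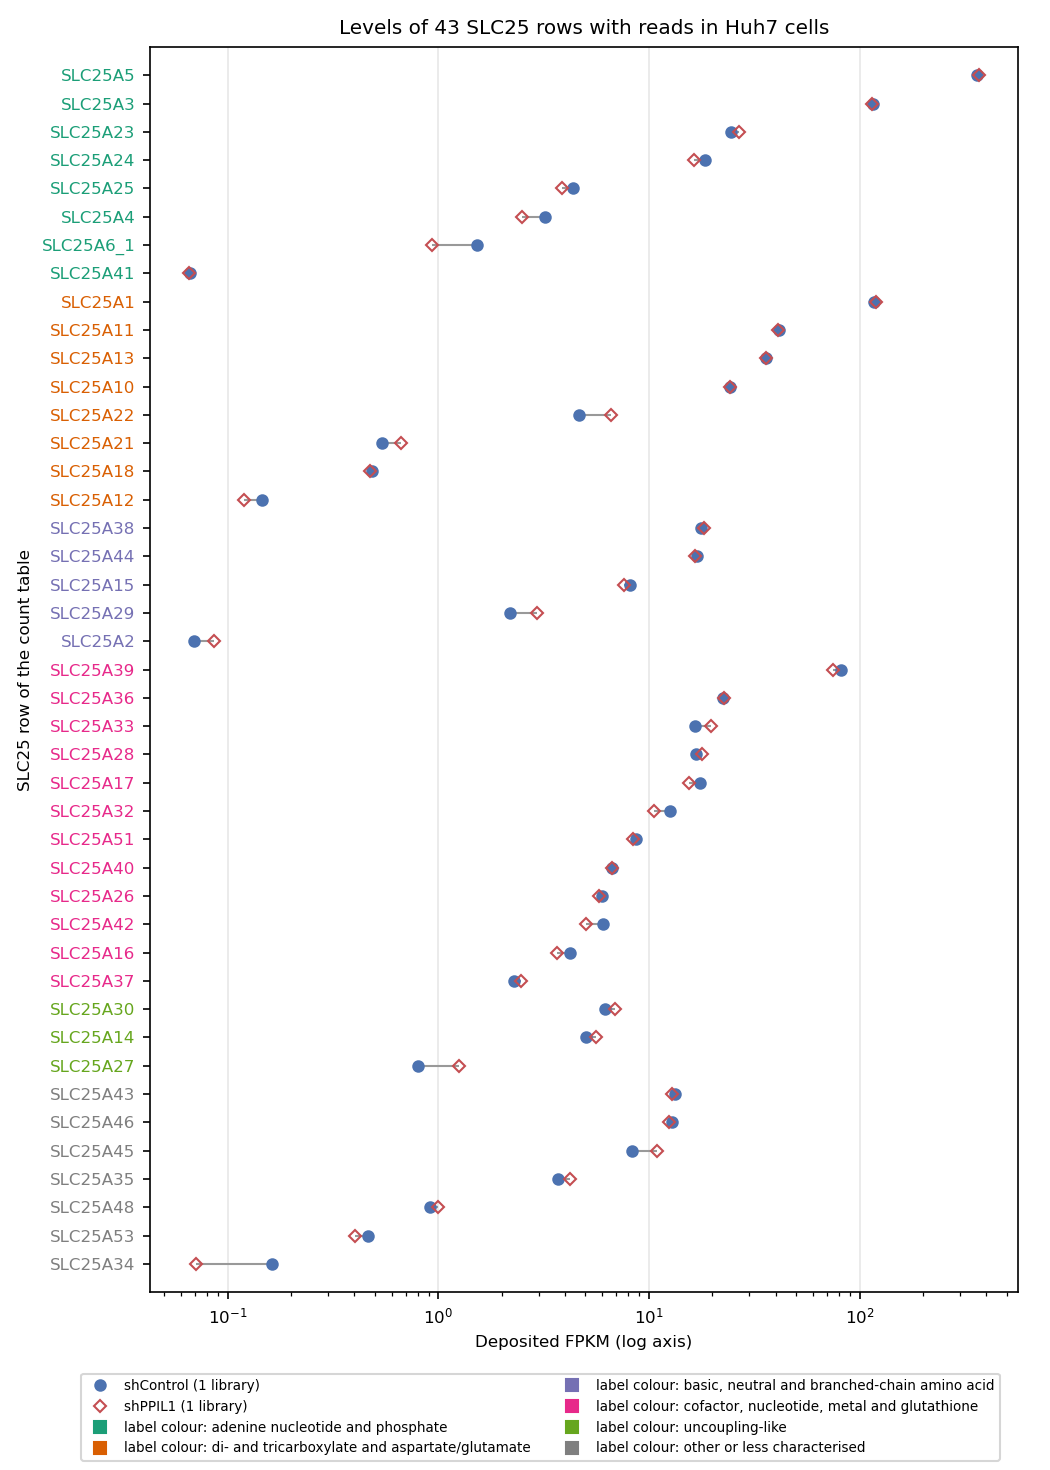
Deposited FPKM (log axis) of 43 SLC25 rows with reads, in the control (filled circles) and the knockdown library (open diamonds), ordered by role and level. SLC25A5, SLC25A1 and SLC25A3 stand above 100 FPKM in both libraries, and the widest relative gap is that of SLC25A34, which rests on 16 and 7 reads.

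SLC25A5, SLC25A1 and SLC25A3 held 56.0% of the family's summed FPKM under shControl and 56.6% under shPPIL1. The sum over all rows was 1060 FPKM under shControl and 1066 FPKM under shPPIL1. By reads, the family had 104519 and 104986, a ratio of 0.987 (0.978 to 0.995). The level of SLC25A3 depends on the gene length behind its FPKM. That length was 6063 bases, against 1678 for its GENCODE transcript with the longest coding sequence. With all reads of its row divided by the latter length, SLC25A3 would stand at 417 and 414 FPKM. That is above SLC25A5 at 371 and 378 computed in the same way. Reads of a row that lie outside the transcript would inflate such values, and their share is not known. The order of the most abundant carriers therefore turns on the gene length used. In a ratio of 1 gene between the libraries the length cancels. Another gene model could count other reads, and none was tried.

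Most members, 31 of 40 (77.5%, beside 78.7% of all genes kept), lay within 1.2-fold between the libraries. Of the 40 kept, 7 were higher with an interval above 1, 11 were lower with an interval below 1, and 22 had an interval that included 1. These are 17.5% and 27.5%, beside 24.6% higher and 26.4% lower among all genes kept. The median log2 ratio was -0.03 for the members and -0.00 for all genes, and the middle 50% ran from -0.13 to 0.11 and from -0.13 to 0.12. Counts at a fold of at least 1.2 with an interval excluding 1 were 4 higher and 4 lower, 10% each, beside 8.32% and 9.52% of all genes. At 1.5-fold they were 1 and 1, or 2.5% each beside 2.02% and 2.22%, and at 2-fold 0 and 0 (background 0.526% and 0.518%). The shares past a fold were near the background. Of the 29 members whose reads summed to 1000 or more, 17.2% were higher and 34.5% lower, beside 26.6% and 30.2% of all such genes. In bulk RNA, fewer cells expressing a gene and less of its RNA per cell cannot be told apart.

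**Figure D2:**
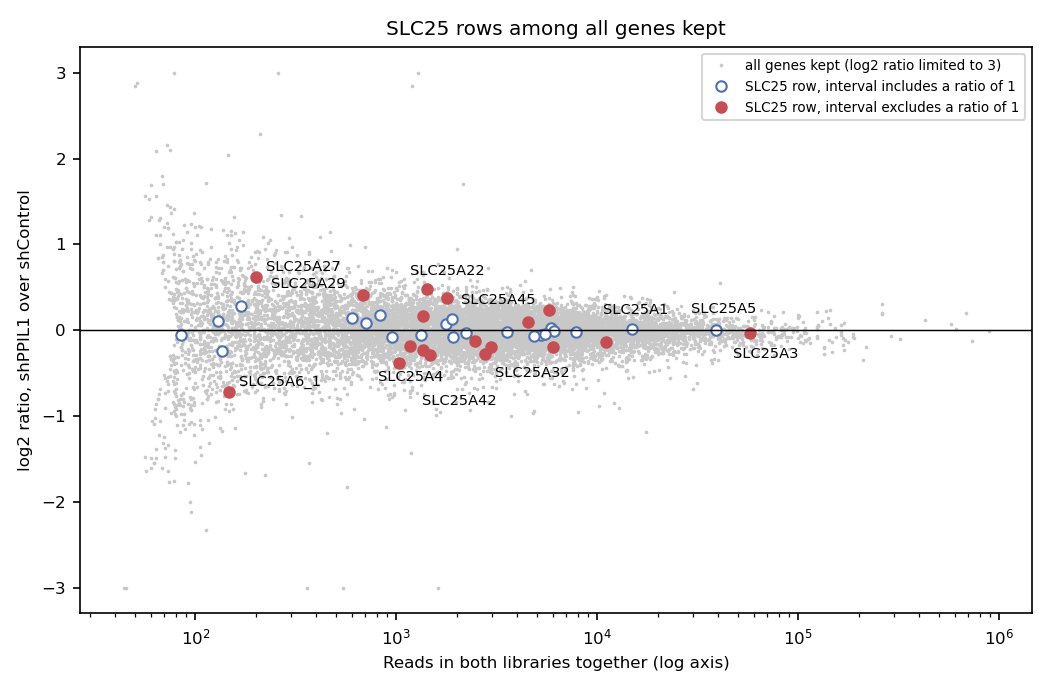
Log2 ratio of the knockdown over the control library against the reads of both libraries together (log axis), for all genes kept (grey) and the 40 SLC25 rows kept (circles, filled where the interval excludes a ratio of 1). Members past 1.2-fold with an interval excluding 1 have at most 2751 reads, and the most deeply counted, SLC25A3, SLC25A5 and SLC25A1, sit near 0.

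Among carriers of adenine nucleotides and phosphate, 1 of the 7 kept rows was higher and 5 were lower, with a median log2 ratio of -0.19, beside 24.6% and 26.4% of all genes kept. Without the row SLC25A6_1, which need not follow its gene, 1 of 6 was higher and 4 were lower, with a median of -0.11. The row with the highest deposited FPKM, that of SLC25A5, had an interval that included 1. SLC25A5 (ANT2) had 19379 shControl and 19798 shPPIL1 reads (362 and 368 FPKM), a ratio of 1.00 (0.984 to 1.02). A gene on the opposite strand overlaps 17.8% of its exonic bases. SLC25A4 (ANT1), the form of heart and muscle, had 580 and 454 reads (3.20 and 2.50 FPKM). It was 1.30-fold lower (1.15 to 1.47), a log2 ratio of -0.38. Among the rows deposited for the ADP/ATP carriers, which do not give a usable level for SLC25A6, SLC25A5 made up 98.7% and 99.1% of the summed FPKM, and the summed reads had a ratio of 0.995 (0.976 to 1.01). SLC25A3, the phosphate carrier that supplies ATP synthase, had 28728 and 28626 reads (116 and 115 FPKM). Its ratio of 0.979 (0.963 to 0.995) is 1.02-fold lower, and with unscaled library totals the interval included 1 (log2 ratio -0.01).

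SLC25A6 (ANT3) could not be measured in these files. Its first row had 0 reads in both libraries and SLC25A6_1 had 91 and 56 reads (1.53 and 0.938 FPKM), a ratio of 0.605 (0.425 to 0.853). That is the lowest ratio among the kept rows of the family. The table holds 19 such second rows, all for symbols of the X chromosome. Of the 8 kept, all 8 lay past 1.5-fold with an interval excluding 1, 5 higher and 3 lower, among them CD99_1 with 55 and 1230 reads and AKAP17A_1 with 77 and 18. How reads that match both copies were treated is not given in the sources used here, so the row need not follow the expression of the gene. Without it, 0 members were lower by 1.5-fold or more.

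The ATP-Mg/phosphate carriers load or unload matrix adenine nucleotides under control of calcium. Of the 3 kept members, 1 was higher and 2 lower, beside 24.6% and 26.4% of all genes kept. SLC25A23 had 2161 shControl and 2345 shPPIL1 reads (24.6 and 26.6 FPKM), a ratio of 1.07 (1.01 to 1.13). SLC25A24 had 3205 and 2851 reads (18.5 and 16.4 FPKM) and was 1.14-fold lower (1.09 to 1.2). SLC25A25 had 617 and 552 reads and was 1.14-fold lower (1.01 to 1.28), a log2 ratio of -0.19. With unscaled library totals its interval included 1 (log2 ratio -0.17). A gene on the opposite strand overlaps 19.7% of its exonic bases. The FPKM share of SLC25A23 within this group was 51.8% under shControl and 56.7% under shPPIL1, and that of SLC25A24 38.9% and 34.9%. These shares depend on the gene lengths behind the FPKM. With all reads of each row divided by the length of its GENCODE transcript, SLC25A23 would stand at 15.4 and 16.6 FPKM. SLC25A24 would stand at 18.3 and 16.2. Reads outside these transcripts would inflate such values. SLC25A41 had 4 and 4 reads.

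Of the 7 kept carriers of di- and tricarboxylates and of aspartate and glutamate, 1 was higher and 0 lower. The shares of all genes kept were 24.6% and 26.4%, and the median log2 ratio of these carriers was -0.02. SLC25A1, which exports citrate to the cytosol for fatty acid and sterol synthesis, had 7356 and 7581 reads (117 and 120 FPKM), a ratio of 1.01 (0.980 to 1.05). SLC25A11, the oxoglutarate/malate exchanger of the malate-aspartate shuttle, had 2768 and 2740 reads (41.4 and 40.8 FPKM), a ratio of 0.973 (0.922 to 1.03). SLC25A10, the dicarboxylate carrier, had 1769 reads in each library and a ratio of 0.982 (0.919 to 1.05). All 3 intervals include 1, and the widest reaches 1.09-fold lower. Of the exonic bases of SLC25A10, 59.5% overlap another annotated gene, AC139530.2, which lies on the same strand. Genes counted in a row of their own overlap 0% of them. SLC25A21, the oxoadipate carrier, had 75 and 93 reads and a ratio of 1.22 (0.889 to 1.67). Other annotated genes overlap 36.4% of its exonic bases, and those counted in a row of their own overlap 15.3%.

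The aspartate/glutamate carriers provide the one-way step of the malate-aspartate shuttle, and the liver form prevailed. SLC25A13 (citrin) had 3915 and 3940 reads (36.0 and 36.1 FPKM), a ratio of 0.989 (0.946 to 1.03). SLC25A12 (aralar), the form of brain and muscle, had 23 and 19 reads (0.146 and 0.120 FPKM), under the filter. Citrin made up 99.6% and 99.7% of their summed FPKM.

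SLC25A22, the main mitochondrial glutamate carrier, was the member with the interval farthest above 1. It had 589 shControl and 835 shPPIL1 reads (4.66 and 6.58 FPKM), a ratio of 1.39 (1.25 to 1.55) and a log2 ratio of 0.48. It lies at chr11:790475-798333 and shared 0% of its 100-base windows, and 0% of its exonic bases, with another gene. Its relative SLC25A18 had 43 and 42 reads (0.486 and 0.473 FPKM), a ratio of 0.960 (0.612 to 1.5). Reads of both summed to 632 and 877, a ratio of 1.36 (1.23 to 1.51).

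Of the 4 kept carriers of basic, neutral and branched-chain amino acids, 1 was higher and 1 lower, beside 24.6% and 26.4% of all genes kept. Their median log2 ratio was -0.01. SLC25A29, which carries basic amino acids, had 289 and 392 reads (2.18 and 2.95 FPKM), a ratio of 1.33 (1.14 to 1.56). Noncoding genes overlap 18.0% of its exonic bases. SLC25A15, the ornithine carrier of the urea cycle, had 1277 and 1194 reads (8.15 and 7.59 FPKM). It was 1.09-fold lower (1.01 to 1.18), and with unscaled library totals the interval included 1 (log2 ratio -0.10). The share of SLC25A29 in the summed FPKM of the basic amino acid carriers was 21.0% and 27.8%, while their summed reads had a ratio of 0.996 (0.928 to 1.07). This share also depends on gene length. With all reads of each row divided by the length of its GENCODE transcript, SLC25A15 would stand at 19.6 and 18.3 FPKM. SLC25A29 would stand at 2.95 and 3.99. Reads outside these transcripts would inflate such values. SLC25A38, the glycine carrier needed for heme synthesis, and SLC25A44, which carries branched-chain amino acids, had ratios of 1.02 (0.969 to 1.07) and 0.960 (0.909 to 1.01).

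**Figure D3:**
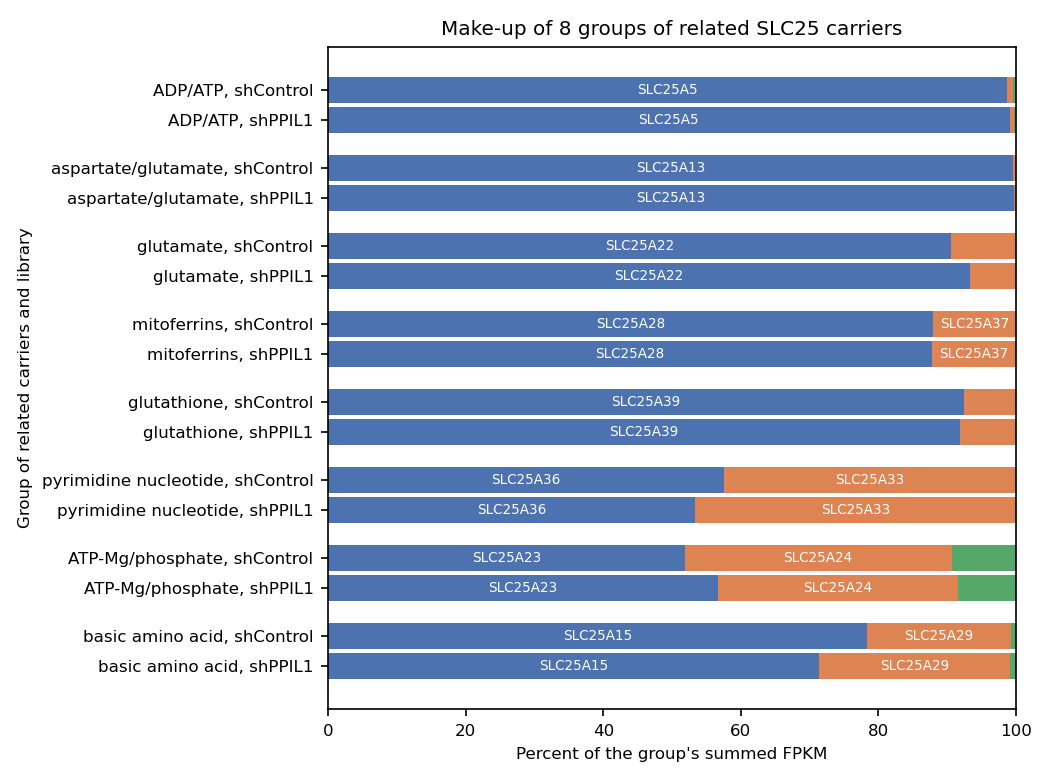
Percent of the summed FPKM held by each member in 8 groups of related carriers, for both libraries. The shares depend on the gene lengths behind the FPKM. SLC25A5 and SLC25A13 hold over 98% of the ADP/ATP and aspartate/glutamate rows in both, the former with no usable level of SLC25A6, and the unlabelled segments, from left to right, are SLC25A4 and SLC25A6_1, SLC25A12, SLC25A18, SLC25A40, SLC25A25 and SLC25A41, and SLC25A2.

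Of the 13 kept carriers of cofactors, nucleotides, metals and glutathione, 2 were higher and 5 lower, beside 24.6% and 26.4% of all genes kept. Their median log2 ratio was -0.07. SLC25A42, which brings coenzyme A into the matrix, had 805 and 670 reads (6.07 and 5.03 FPKM) and was 1.22-fold lower (1.10 to 1.36). SLC25A16, also linked to matrix coenzyme A, had 724 and 628 reads and was 1.17-fold lower (1.05 to 1.31). The peroxisomal carrier SLC25A17, which moves coenzyme A and other nucleotide cofactors, had 1558 and 1387 reads (17.5 and 15.5 FPKM) and was 1.14-fold lower (1.06 to 1.23).

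SLC25A32, the carrier of folate and flavin, had 1494 and 1257 reads (12.6 and 10.5 FPKM) and was 1.21-fold lower (1.12 to 1.31). Other annotated genes overlap 99.2% of its exonic bases, and those counted in a row of their own overlap 11.1%. SLC25A39, a glutathione carrier, was the most abundant of this group, with 5767 and 5332 reads (81.5 and 75.1 FPKM). It was 1.10-fold lower (1.06 to 1.14), while its relative SLC25A40 had 1116 and 1112 reads and a ratio of 0.979 (0.900 to 1.07).

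Of the pyrimidine nucleotide carriers, SLC25A33 was higher and SLC25A36 had an interval that included 1. SLC25A33 had 2624 shControl and 3149 shPPIL1 reads (16.6 and 19.8 FPKM), a ratio of 1.18 (1.12 to 1.24). SLC25A36 had 3034 and 3071 reads (22.5 and 22.6 FPKM), a ratio of 0.994 (0.945 to 1.05). The intervals do not overlap. A difference between their ratios was not tested. The share of SLC25A33 in their summed FPKM was 42.4% and 46.6%, and depends on the gene lengths behind the FPKM. With all reads of each row divided by the length of its GENCODE transcript, SLC25A36 would stand at 56.9 and 57.3 FPKM. SLC25A33 would stand at 16.6 and 19.8. Reads outside these transcripts would inflate such values.

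The mitoferrins, which import iron, had ratios of 1.06 (0.960 to 1.16) for SLC25A28 and 1.06 (0.915 to 1.24) for SLC25A37. SLC25A51, the NAD carrier, and SLC25A26, the S-adenosylmethionine carrier, had ratios of 0.95 (0.867 to 1.04) and 0.95 (0.835 to 1.08).

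Of the 3 members with sequence likeness to uncoupling proteins, 1 was higher and 0 lower, beside 24.6% and 26.4% of all genes kept. Their median log2 ratio was 0.14. SLC25A27 (UCP4), mainly known from brain, had 78 and 122 reads (0.801 and 1.25 FPKM), a ratio of 1.54 (1.15 to 2.07). It had the highest ratio among the kept rows of the family and is the only member 1.5-fold higher, at a depth where the interval is wide. It falls under a filter of 5 CPM. SLC25A30 had 901 and 1000 reads, a ratio of 1.09 (0.996 to 1.19), and SLC25A14 282 and 317 reads, a ratio of 1.10 (0.938 to 1.30). With unscaled library totals the interval of SLC25A30 lay above 1 (log2 ratio 0.15).

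Of the less characterised members, SLC25A45 had 766 and 1013 reads (8.29 and 10.9 FPKM), a ratio of 1.30 (1.18 to 1.43). The others had intervals that included 1. SLC25A46, a carrier-like protein of the outer membrane, had 2451 and 2375 reads and a ratio of 0.952 (0.899 to 1.01). The ratios of SLC25A43, SLC25A35, SLC25A48 and SLC25A53 were 0.959, 1.13, 1.08 and 0.848. SLC25A34 had 16 and 7 reads and SLC25A2 had 4 and 5, too few for a direction.

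**Figure D4:**
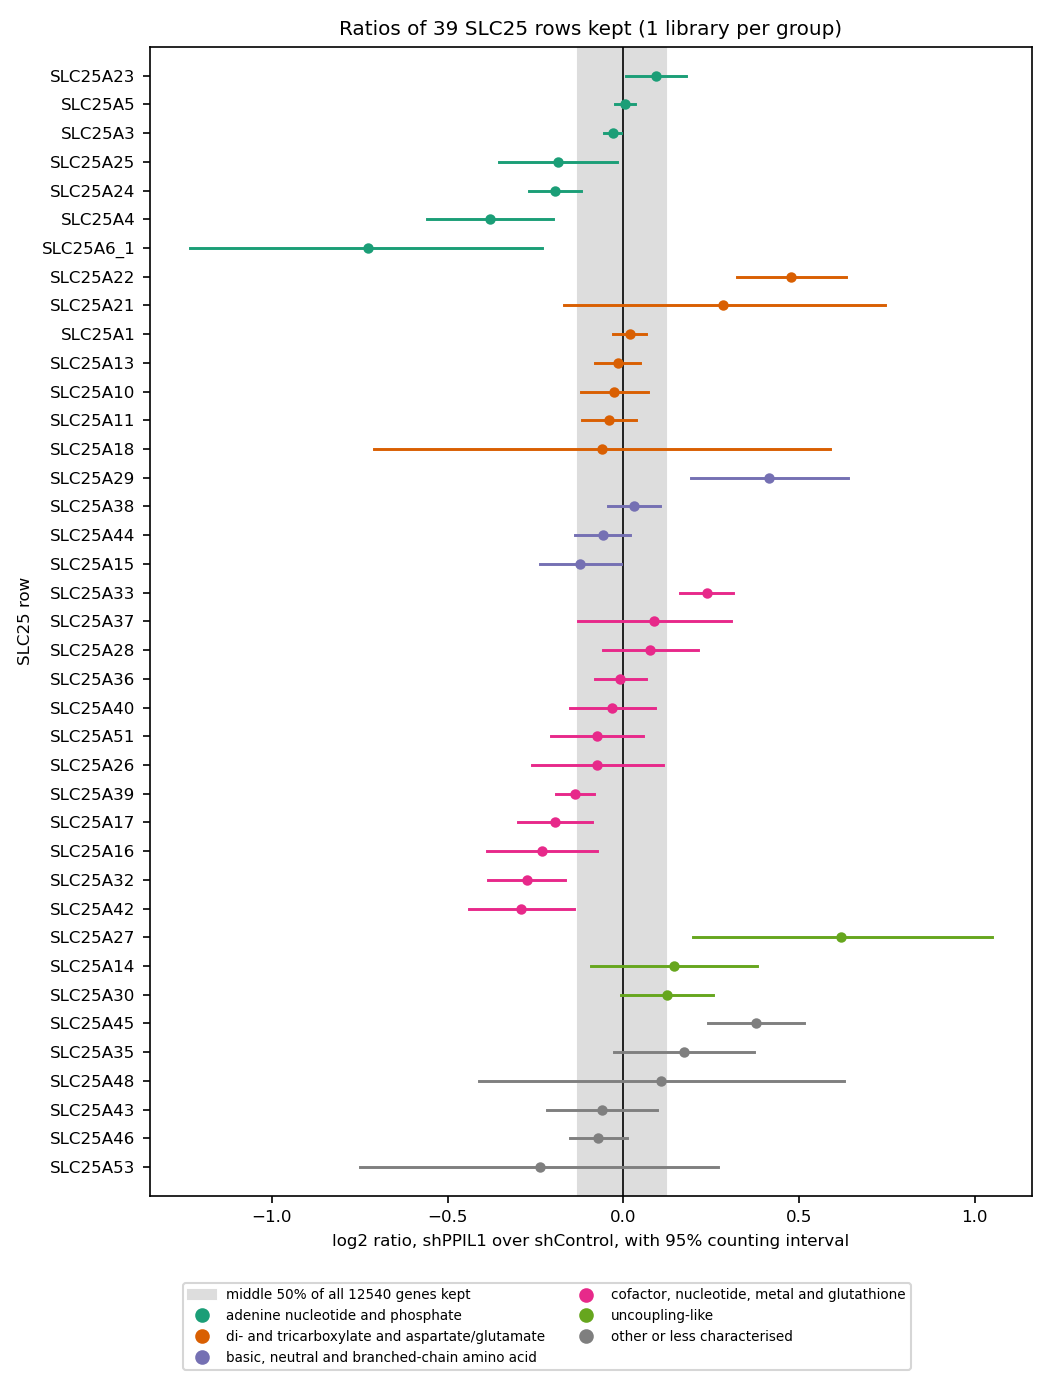
Log2 ratio of the knockdown over the control library with its 95% counting interval for 39 SLC25 rows kept, ordered by role. The grey band is the middle 50% of all 12540 genes kept, and SLC25A27, SLC25A22, SLC25A29, SLC25A45 and SLC25A33 have intervals wholly to the right of it, while SLC25A6_1, SLC25A4, SLC25A32 and SLC25A42 have intervals wholly to the left.

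Genes that act beside the carriers were listed by function. Of 43 listed and kept, 12 were higher and 10 lower with an interval excluding 1, and the median log2 ratio was 0.01, near the background of 24.6% higher and 26.4% lower and the median of -0.00 over all genes kept. Carriers of the family named otherwise included the insertase of the outer membrane MTCH2, with 6164 and 6989 reads and a ratio of 1.11 (1.08 to 1.15), its relative MTCH1 at 1.07 (1.02 to 1.12), and UCP2 at 0.910 (0.863 to 0.960). The outer membrane pores VDAC1, VDAC2 and VDAC3 had ratios of 1.01, 0.984 and 0.991, each with an interval including 1. Of the pyruvate carrier, MPC2 had 15564 and 18155 reads and a ratio of 1.15 (1.12 to 1.17), and MPC1 a ratio of 0.956 (0.901 to 1.02). Among sideroflexins, SFXN3 had a ratio of 1.17 (1.10 to 1.24), and SFXN1, a serine carrier, and SFXN4 had ratios of 0.920 (0.886 to 0.956) and 0.809 (0.746 to 0.878).

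Of the 7 enzymes of the malate-aspartate shuttle and of citrate export, 2 were higher and 4 lower, beside 24.6% and 26.4% of all genes kept. ACLY, which splits exported citrate, had 21905 and 18951 reads and a ratio of 0.850 (0.834 to 0.867). The malic enzyme ME1 had 10582 and 9165 reads and a ratio of 0.851 (0.827 to 0.875), and the cytosolic aspartate aminotransferase GOT1 a ratio of 0.877 (0.848 to 0.907). Cytosolic MDH1 had a ratio of 1.04 (1.01 to 1.06). In the matrix, MDH2 had a ratio of 0.927 (0.899 to 0.956), GOT2 1.03 (0.984 to 1.07) and citrate synthase, CS, 1.04 (1.00 to 1.07). A difference between enzymes and carriers was not tested.

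Of the 8 genes of the calcium uniporter and of calcium exchange, 4 were higher and 1 lower, beside the 24.6% and 26.4% of all genes kept. MICU3 had 313 and 469 reads and a ratio of 1.47 (1.27 to 1.70) and MICU2 0.830 (0.782 to 0.880), whereas the pore subunit MCU had a ratio of 0.953 (0.892 to 1.02). The sodium/calcium exchanger gene SLC8B1 had a ratio of 1.18 (1.07 to 1.30). Of the 10 genes for the insertion of carriers, 1 was higher (AGK, 1.09) and 2 were lower (TIMM10B, 0.823, and the receptor TOMM70, 0.945), and the pore gene TIMM22 had a ratio of 1.08 (0.991 to 1.18). Of the 3 inner membrane ABC exporters, ABCB10 was higher at 1.08 (1.02 to 1.14).

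**Figure D5:**
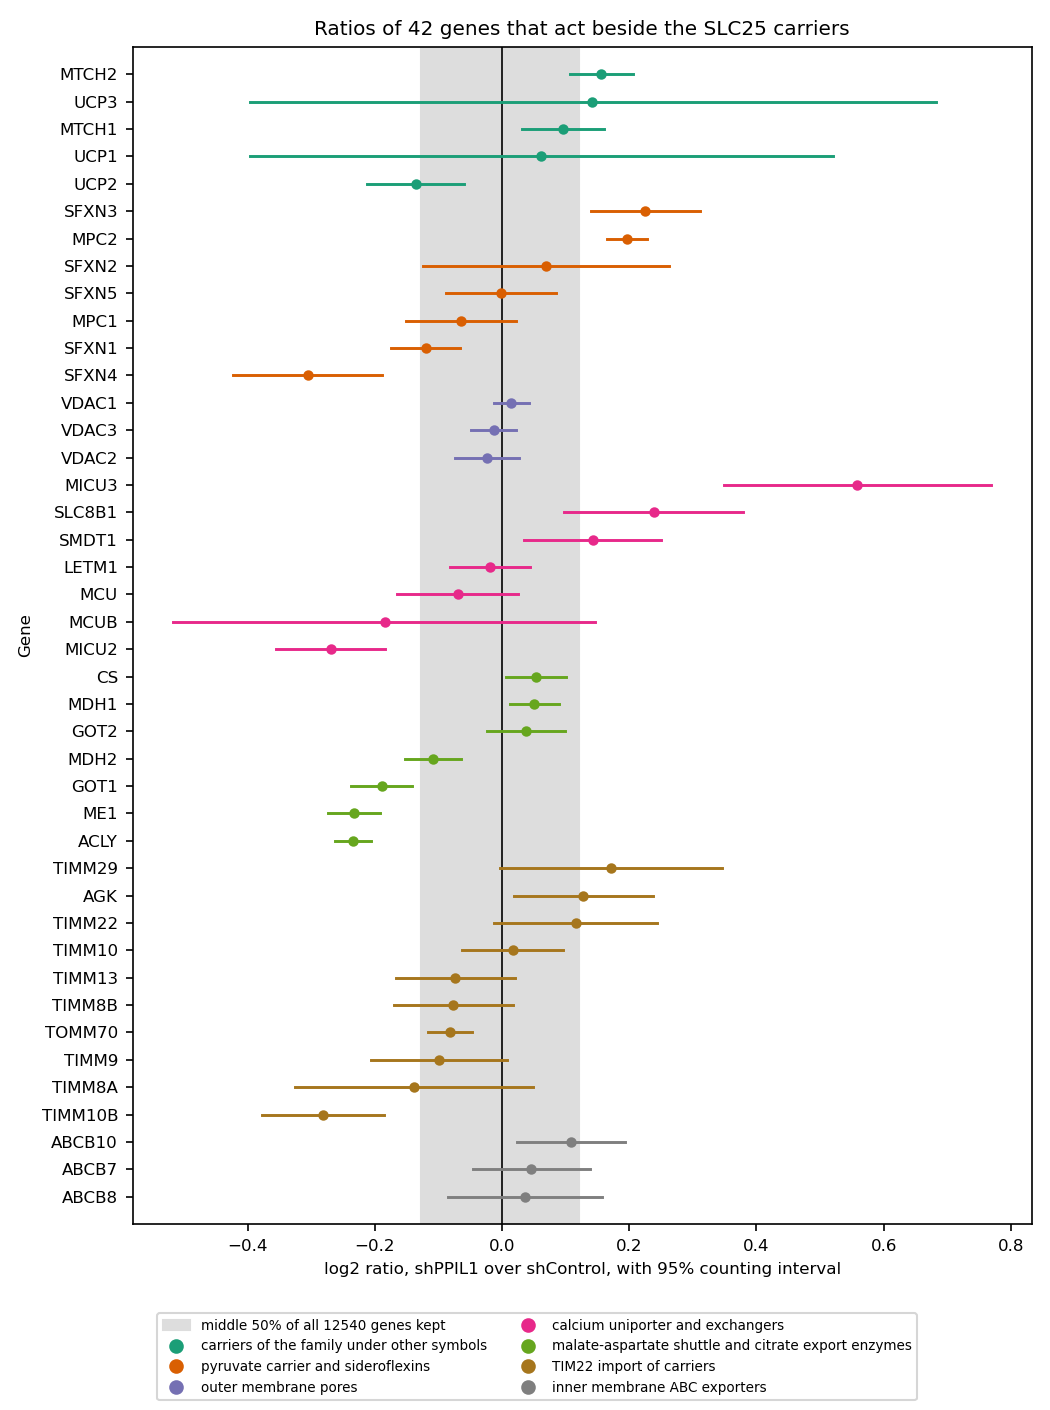
Log2 ratio with its 95% counting interval for 42 genes that act beside the carriers, in 7 groups, with the middle 50% of all genes kept as a grey band. MICU3 lies farthest to the right, and SFXN4, TIMM10B, MICU2, ACLY, ME1 and GOT1 lie wholly to the left of the band.

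The 6-base sequence GATCAT was counted in the members' transcripts, because an earlier search in these libraries had picked it for its relation to these ratios. It therefore supports nothing here. Of 39 kept members with a transcript, 17 (43.6%) carried it in the coding sequence or the 3' UTR, beside 46.4% of all kept genes with a transcript. The median log2 ratio was -0.06 for these 17 and -0.00 for the other 22 members, and -0.03 and 0.02 for all genes. Its reverse complement ATGATC stood in 14 members (35.9%), beside 46.3% of all genes. Of the 7 members past 1.2-fold with an interval excluding 1 and a transcript, 3 carried GATCAT, and their sites are shown with the motif in capitals. The sites lie in coding exon 2 of 9 of SLC25A27 (chr6:46655955-46655984, plus strand), in coding exon 2 of 4 of SLC25A4 (chr4:185144799-185144828, plus strand), and in the 3' UTR in exon 7 of 7 of SLC25A45 (chr11:65375335-65375364, minus strand).
SLC25A27: cacagctctaggGATCATtgaagaggaagg
SLC25A4: gcagtacaaaggGATCATtgattgtgtggt
SLC25A45: cacacatgccttGATCATagcacttgcctg
Of all 17 members with the motif, 4 were higher and 6 lower, and of the 22 without it 3 were higher and 4 lower. Among all kept genes with a transcript, 1223 of the 5622 with the motif were higher and 1822 lower. Of the 6491 without the motif, 1760 were higher and 1396 lower. SLC25A22, SLC25A29, SLC25A32 and SLC25A42 held 0 matches in these parts of the transcript.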

How the data were processed

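Messenger RNA was selected with poly-T and sequenced from 1 Huh7 culture per group, per the labels' protocols. The values deposited by the authors were of these kinds: raw read counts for each gene, and FPKM. The build is hg38, per the submitters' processing notes. No aligner, counter, annotation or strand setting was given in the sources used here. Another 7 columns of the count table match no label and were not used.

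Library sizes (41015345 and 41165401 reads) were scaled with TMM factors (edgeR 4.0.16, R 4.3.3) of 0.993 and 1.01, and genes with 1 CPM in at least 1 library were kept (12540). Ratios carry exact Clopper-Pearson intervals (scipy 1.17.1), computed over the whole table. They were tested on simulated data drawn with counting error only, which cannot show how they hold under variation between cultures. No p-value was computed. 2 genes that enter the counts and medians are not reported here by name or drawn in the plots by gene.

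Members' counts are given for the 8 with the highest mean FPKM, those past 1.2-fold with an interval excluding 1, and the adenine nucleotide and aspartate/glutamate carriers. Further members are given by role. Up to 2 higher and 2 lower genes per partner list were named, with others of the lists for comparison. The members and lists were chosen with earlier results of these data known. Transcripts, shared 100-base windows (every 10 bases) and overlaps came from GENCODE release 29 (GRCh38), using the transcript with the longest coding sequence. Coding sequences were aligned with MAFFT 7.526. Gene positions are those of GENCODE. Alternatives were library totals, DESeq2 1.42.0 size factors, other filters, log2(FPKM + 1) and log2(FPKM + 0.1), and, chosen after seeing the data, leaving out members with GATCAT, members with overlapped exons, or SLC25A6_1.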

Additional observations from a re-analysis of the deposited data

How the results depend on the processing

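Counts of 7 higher and 11 lower members ran from 6 to 8 and from 8 to 11 over library totals, DESeq2 size factors, no filter, 5 CPM, and without members that share sequence or have 20% or more of their exonic bases overlapped. The median log2 ratio ran from -0.03 to -0.01, with FPKM included. At 5 CPM, 0 members were higher and 0 lower by 1.5-fold or more, because SLC25A27 and SLC25A6_1 fall under the filter. Members that share sequence were those with 20% or more of their windows shared, and SLC25A6_1. Of the kept rows this left out SLC25A6_1 alone, and 0 members were then lower by 1.5-fold or more. Without the 17 carriers of GATCAT, 23 members were left, of which 3 were higher, 5 lower and 0 higher by 1.5-fold or more, with fewer members by construction. Of the 18 members given by the naming rule, 2 lost their call with library totals and 0 with DESeq2 size factors. The sign changed for 1, SLC25A13, whose interval includes 1: its log2 ratio of -0.02 became 0.00 (0.0039 with library totals and 0.0038 with log2(FPKM + 1)). No paired analysis was possible because each group holds 1 library. Depth limits SLC25A2, SLC25A12, SLC25A34 and SLC25A41, which stayed under the filter of 1 CPM.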

Other observations

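The second rows of symbols in the pseudoautosomal regions ran in both directions. PLCXD1_1 had 233 and 466 reads, DHRSX_1 143 and 323, ASMTL_1 72 and 125, and PPP2R3B_1 5 and 73, each higher in the knockdown library, whereas GTPBP6_1 had 582 and 339 reads. The first rows of these symbols had at most 3 reads in either library. Summed rows of VAMP7, whose reads all stood in its first row, were 562 and 449.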
